A study of Mus musculus with 36 samples.

Results

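Mouse embryonic fibroblasts (MEFs) were driven toward induced pluripotent stem cells while the histone methyltransferase DOT1L was kept inhibited, and the step from day 2 to day 4 under that continuous inhibition was compared. The comparison rested on 4 of the 36 libraries of the series, 2 at day 2 and 2 at day 4, chosen by their titles. The day 2 cells had received doxycycline and the DOT1L inhibitor SGC0946 for 2 days, and the day 4 cells had received both for 4 days. The same step was available in 4 libraries that received doxycycline and the vehicle DMSO for 2 or 4 days, and these served as the control arm. All 4 groups descended from E13.5 MEFs that were homozygous for a doxycycline-inducible cassette at the Col1a1 locus, which carried Oct4 (here Pou5f1) together with Klf4, Sox2 and c-Myc, and heterozygous for the reverse tetracycline transactivator at the Rosa26 locus. Reprogramming cells grew on irradiated feeder MEFs, in medium with serum and leukemia inhibitory factor, and the counts cannot separate feeder RNA from that of the reprogramming cells. Polyadenylated RNA was sequenced. Expected counts summed to 45.35 M and 50.87 M in the day 2 inhibitor libraries and to 40.01 M and 45.98 M in the day 4 inhibitor libraries.

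Reprogramming by these 4 transcription factors is known to pass through an early loss of the fibroblast program and a mesenchymal-to-epithelial transition, in which junction proteins such as E-cadherin (Cdh1) are gained, before the endogenous pluripotency network is switched on. DOT1L methylates histone H3 in the body of transcribed genes, and its inhibition is known to ease reprogramming of fibroblasts. Sterol synthesis is controlled by SREBP transcription factors, and replication and mitosis genes are controlled by E2F and DREAM complexes at their promoters.

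Levels are given for each library as CPM, the count of a gene relative to the total of its library after TMM scaling, and changes as log2 fold changes ± SE (day 4 over day 2). A gene was called, and is said to have risen or fallen, at a Benjamini-Hochberg adjusted p under 0.05 in the quasi-likelihood test of edgeR. Nothing in the labels ties the paired libraries of a group to separate cultures. The p-values therefore cover only the variation between these samples, and that variation may be technical. In bulk RNA, fewer cells of a type and less RNA per cell cannot be told apart, and each change is relative to the remaining genes in the same library. Beyond counting noise, replicates varied by 2.95% (coefficient of variation), so small changes passed the test. One technical measure moved with the day: gene length exceeded the effective length of the deposited files by 63.3 and 70.7 bases at day 2 and by 74.6 and 80.8 bases at day 4. Its part in the results was not tested, and across 4 equal classes of gene length the median change lay between -0.01 and 0.03.

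The labels were checked first. The cassette factors stayed expressed: Pou5f1 stood at 174 and 175 CPM at day 2 and 150.25 and 143 CPM at day 4, against 1.24 and 1.55 CPM in uninduced MEFs. Pou5f1 and Klf4 fell slightly (-0.25 ± 0.04 and -0.16 ± 0.04), and Sox2 (-0.06 ± 0.04) and Myc (-0.05 ± 0.03) were not called. Without day 4 inhibitor replicate 1, Sox2 and Myc were called as well, at -0.14 and -0.12. Counts of these genes cannot separate the cassette from the endogenous copies. Dot1l RNA, which an inhibitor of the enzyme need not change, stood at 91.7 and 88.2 CPM and then 95.5 and 88.8 CPM (0.03 ± 0.04, adjusted p = 0.429). Of 8 fibroblast markers, all were detected at both days, and their summed level was 6684 and 6783 CPM at day 2, 8048 and 7804 CPM at day 4 and 22490.5 and 22659 CPM in uninduced MEFs. Of 6 markers of pluripotent cells, 4 had a mean under 0.1 CPM at day 2 (Zfp42, Dppa5a, Utf1 and Sall4). At day 4 Zfp42 and Esrrb did, and Esrrb lay near that limit at both days (0.111 and 0.0993, then 0.0959 and 0.104 CPM).

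Of 14473 genes tested, 11410 changed between day 2 and day 4 under the inhibitor, or 78.8%. Of these, 5730 rose (39.6% of the genes tested) and 5680 fell (39.2%). Most changes were small: the median size among called genes was 1.515-fold, and 1 in 10 of them exceeded 3.705-fold. By 2-fold or more, 2235 genes rose (15.4%) and 915 fell (6.32%). In limma on log2(TPM + 1), whose added constant shrinks changes of low genes, these 2-fold counts were 1200 and 455. With so many genes called, a list of genes is read below against these shares and against the median change of all genes, 0.01.

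Epithelial genes rose together. Of 34 genes of epithelial junctions, keratins and their regulators, 26 passed the low-count filter. Of these 26, 24 rose and 1 fell, 21 of them rose by 2-fold or more, and the median change was 1.97. Cdh1, which encodes E-cadherin, stood at 7.12 and 7.65 CPM at day 2 and 28.8 and 27 CPM at day 4 (1.92 ± 0.08, adjusted p = 3.01e-23). Both day 4 libraries were thus well above both day 2 libraries, and the replicates lay far closer to each other than to the other day. The tight junction adhesion gene F11r went from 15.6 and 15.5 to 61.8 and 66.2 CPM (2.04 ± 0.06), and the claudin gene Cldn3 from 2.34 and 2.5 to 14.7 and 13.1 CPM (2.52 ± 0.12). Spint1 and Spint2 encode membrane inhibitors of serine proteases that guard epithelial integrity. Spint1 rose from 1.65 and 1.77 to 24 and 22.2 CPM (3.75 ± 0.11, adjusted p = 1.81e-28), and Spint2 from 7.15 and 7.47 to 48.9 and 47.7 CPM (2.72 ± 0.07, adjusted p = 1.56e-30). St14, which encodes their target protease matriptase, rose by 1.50 ± 0.10.

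The keratin pair of simple epithelia, Krt8 and Krt18, went from 4.23 and 4.47 to 16.1 and 17 CPM (1.93 ± 0.10) and from 2.92 and 2.19 to 8.61 and 9.23 CPM (1.81 ± 0.13). Their relative Krt19 was the member that fell, from 119 and 112 to 62.9 and 59.5 CPM (-0.92 ± 0.05). The list therefore did not move as a single block. The junction plaque genes Jup and Dsp rose by smaller factors than Cdh1: plakoglobin (Jup) rose from 95.2 and 92.5 to 204 and 194 CPM (1.08 ± 0.04) and desmoplakin (Dsp) from 44.3 and 48.3 to 78.8 and 79.8 CPM (0.77 ± 0.05). Several members were close to the detection limit at day 2. Epcam, an epithelial and stem cell adhesion gene, had 27 and 14 counts at day 2 and 180 and 183 at day 4, a ratio of 9.38 with a 95% exact counting interval of 6.78 to 13.3. Marveld3, a tight junction protein gene, had 3 and 3 counts and then 42 and 82, a ratio of 21.9 (9.78 to 60.8), and the membrane protease gene Prss8 had 1 and 0 counts and then 30 and 25, a ratio of 58.3 (10 to 2340). These intervals cover counting error only. The 8 members that did not pass the filter were Cldn6, Cldn7, Crb3, Marveld2, Esrp1, Ovol2, Rab25 and Ap1m2. The plot of levels in each library shows several of these genes.

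**Figure D1:**
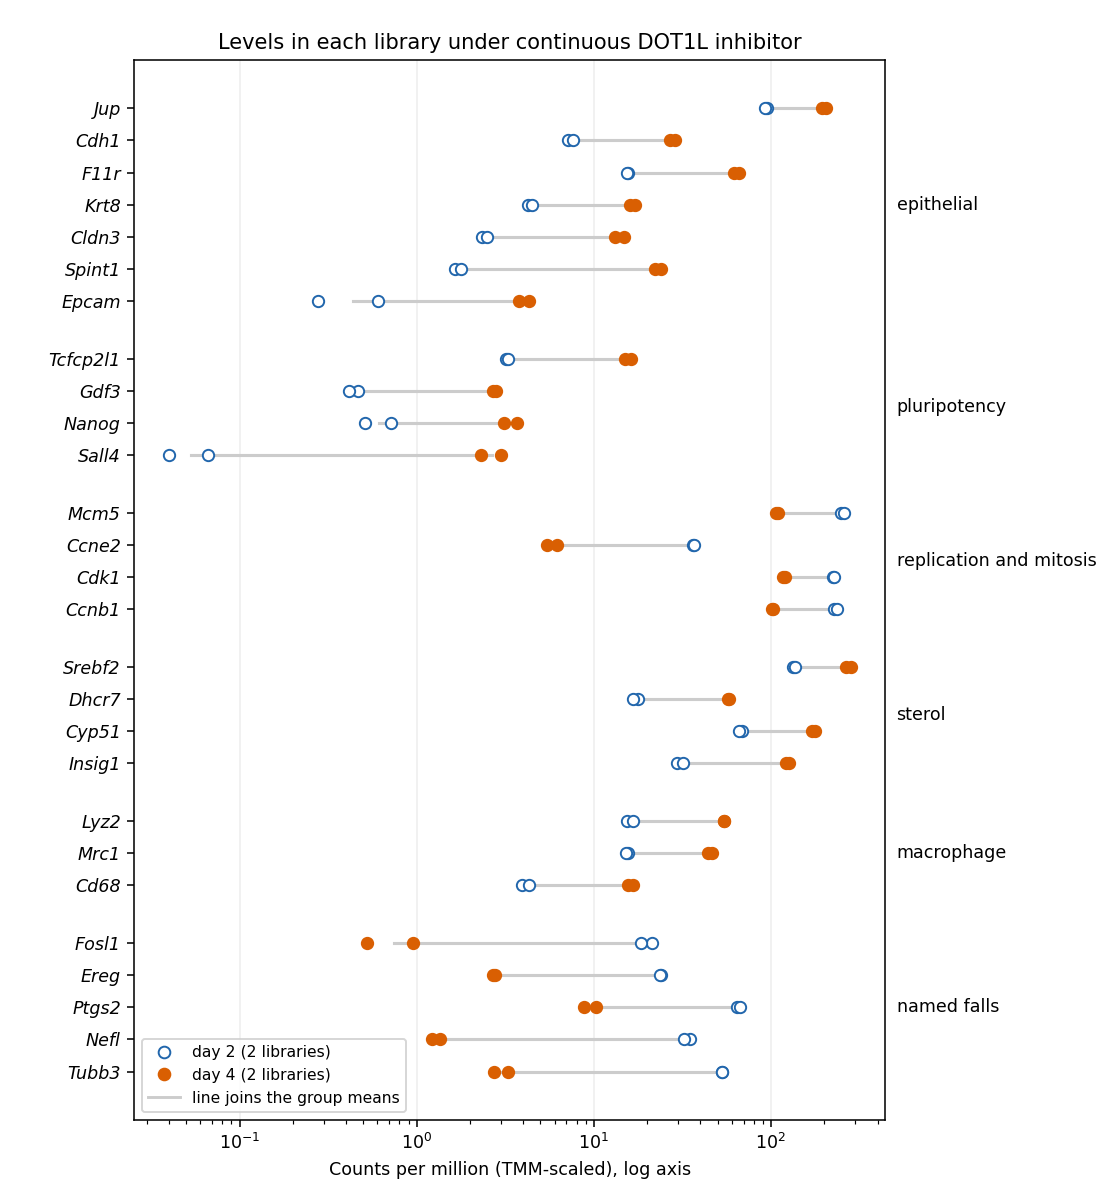
Level of 27 genes in each of the 4 libraries under continuous inhibitor, in CPM on a log axis; open points are the 2 day 2 libraries, filled points the 2 day 4 libraries, and a line joins the group means. Epithelial, pluripotency, sterol and macrophage genes lie to the right at day 4, and replication, mitosis and the named falls lie to the left; in none of the genes shown do the days overlap.

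The pluripotency genes were divided, with the named rises starting from low levels. Of 25 members 16 passed the filter, and of these 10 rose, 3 fell and 3 were not called, with a median change of 0.64. Nanog, a core regulator, rose from 0.512 and 0.715 to 3.12 and 3.67 CPM (2.46 ± 0.23, adjusted p = 1.25e-12), and Tcfcp2l1 (now Tfcp2l1), a regulator of the naive state, from 3.21 and 3.3 to 15 and 16.1 CPM (2.26 ± 0.10). The zinc finger regulator Sall4 had 3 and 2 counts at day 2 and 125 and 111 counts at day 4, a ratio of 50 with a counting interval of 21.1 to 155. Gdf3, a TGF-beta family ligand of pluripotent cells, rose by 2.64 ± 0.28, and the F-box gene Fbxo15 by 2.02 ± 0.12. In contrast, Lin28b, an RNA-binding inhibitor of microRNA processing, fell from 2.16 and 2.05 to 0.384 and 0.602 CPM (-2.07 ± 0.28), and L1td1, another RNA-binding protein gene, stood at 123 and 116 and then 113 and 115 CPM (adjusted p = 0.126). Esrrb, Zfp42, Dppa2, Dppa3, Dppa4, Dppa5a, Utf1, Lin28a and Prdm14 did not pass the filter. In the embryonic stem cells (ESCs) of the series, which were normalized in a separate set, Nanog averaged 156 CPM, Sall4 134 CPM and Cdh1 737 CPM. At day 4 these 3 genes were still far below those levels.

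The wider gene sets of the end states gave a different picture. The sets compared ESCs with MEFs given an empty lentivirus, which are not the uninduced MEFs of the timecourse. Genes higher in ESCs than in these MEFs by 4-fold or more numbered 2383, of which 1795 were tested here. Of those, 37.5% rose and 42.3% fell, shares close to the 39.6% and 39.2% of all genes, and their median change was -0.06. With an 8-fold limit the order turned, with 43% rising and 33.3% falling and a median of 0.28. Of 2632 tested genes higher in these MEFs, 52.4% rose and 27.1% fell (median 0.29), and with an 8-fold limit 53.9% and 24.5%. From day 2 to day 4 under the inhibitor, more genes of the MEF set rose than fell. The control arm was alike for this set, with 52.2% rising and 27.2% falling at the 4-fold limit. Of the ESC set at that limit, 30.6% rose and 43.5% fell in the control arm. Among members whose mean log2 CPM reached 3, the 4 largest increases of the ESC set were those of Aldoc, Ifitm1, the membrane protein gene Ttyh1 (2.18 and 2.5 to 52.1 and 53 CPM) and the secreted WAP-domain gene Wfdc2 (3.12 and 2.8 to 58.3 and 55.1 CPM). In the MEF set, under the same limit, they included Egfl6, Lbp and 1500015O10Rik, whose values stand below with the largest changes of all genes.

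Cell cycle genes fell without exception in both lists. All 22 DNA replication and S phase genes fell, with a median of -0.92, and all 20 mitosis and G2/M genes fell, with a median of -0.93. Rrm2, the regulatory subunit of ribonucleotide reductase, went from 415 and 415 to 106 and 110.0 CPM (-1.94 ± 0.03, adjusted p = 3.01e-36). Cyclin E2 (Ccne2) had the largest fall of the S phase list, from 36.1 and 36.8 to 5.47 and 6.16 CPM (-2.64 ± 0.08). The replicative helicase subunit Mcm5 went from 248 and 259 to 109.7 and 107 CPM (-1.22 ± 0.03), and the replication licensing gene Cdc6 fell (-1.52 ± 0.06). In mitosis, the kinase gene Cdk1 went from 225 and 228 to 120.1 and 117 CPM (-0.93 ± 0.03) and its partner cyclin B1 (Ccnb1) from 226 and 237 to 102 and 103 CPM (-1.18 ± 0.04). In each of these genes both day 4 libraries lay below both day 2 libraries. Of the 6 genes of CDK inhibitors in the lists, which hold back the cell cycle, 4 rose, 1 fell and 1 was not called. Cdkn1c rose from 6.72 and 7.11 to 64.5 and 62.2 CPM (3.19 ± 0.06), Cdkn1b rose by 0.93 ± 0.05, Cdkn2a by 1.02 ± 0.05 and Cdkn2b by 0.48 ± 0.05, whereas Cdkn2c fell (-0.60 ± 0.10) and Cdkn1a was not called (0.06 ± 0.04). The p53 target and inhibitor list as a whole had 10 of 18 members higher and 6 lower, with a median of 0.37.

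Since the 42 genes of both cell cycle lists moved in 1 direction, their promoters were searched for the letters of 3 elements, and those of the sterol list described next for the sterol regulatory element. The window was the 250 bases before the RefSeq start of each gene (build GRCm38.p6), on both strands. List members were counted as genes, with a match in any of their promoters, whereas the shares of all count single promoters. The 2 measures are therefore not alike. The E2F letters (TTTCCCGC, TTTCGCGC, TTTGGCGC or TTTGCCGC) stood in 5 of 17 S phase genes with a promoter at hand, namely Cdc6, Mcm5, Mcm6, Mcm7 and Pola1, and in 1.86% of all 32851 promoters. The CHR letters TTTGAA, bound by the DREAM complex, stood in 7 of 16 mitosis genes and in 16% of all promoters. CCAAT stood in 14 of 16 genes and in 33.8% of all promoters. The letters of the sterol regulatory element stood in 0 of 15 genes of the sterol and fatty acid list with a promoter at hand, and in 0.192% of all promoters. These matches describe letters and are not shown to be sites, and 0 matches say only that the letters are not in this window. The 3 promoters below, of genes described above, show how the letters lie on the strand of the gene. Capitals mark only E2F matches in Mcm5, CCAAT in Ccnb1, and TTTGAA and CCAAT in Cdk1. A match on the other strand appears as its reverse complement. Letters of the other elements are left in lower case where they occur, such as TTTCGCGC in Cdk1 and CCAAT in Mcm5. In Mcm5 (chr8:75109259-75109508, plus strand) 2 overlapping E2F matches lie between -153 and -142 from the start. In Ccnb1 (chr13:100786487-100786736, minus strand) CCAAT lies at -99 to -95 and -67 to -63. In Cdk1 (chr10:69352913-69353162, minus strand) TTTGAA lies at -71 to -66 and -15 to -10, and CCAAT, in reverse, at -208 to -204, -80 to -76 and -48 to -44.
Mcm5: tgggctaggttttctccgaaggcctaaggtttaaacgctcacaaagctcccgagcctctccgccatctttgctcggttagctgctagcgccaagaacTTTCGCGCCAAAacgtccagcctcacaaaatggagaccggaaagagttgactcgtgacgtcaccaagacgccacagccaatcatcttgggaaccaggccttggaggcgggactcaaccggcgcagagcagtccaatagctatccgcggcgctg
Ccnb1: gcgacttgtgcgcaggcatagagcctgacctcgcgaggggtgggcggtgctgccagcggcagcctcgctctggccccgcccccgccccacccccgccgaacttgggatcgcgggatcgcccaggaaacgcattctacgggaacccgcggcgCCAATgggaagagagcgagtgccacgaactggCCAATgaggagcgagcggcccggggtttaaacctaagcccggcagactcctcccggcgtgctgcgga
Cdk1: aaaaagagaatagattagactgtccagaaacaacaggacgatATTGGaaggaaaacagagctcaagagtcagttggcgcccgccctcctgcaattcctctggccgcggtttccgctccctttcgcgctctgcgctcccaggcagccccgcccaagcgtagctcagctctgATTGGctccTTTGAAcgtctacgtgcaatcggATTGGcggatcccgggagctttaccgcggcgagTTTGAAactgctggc

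Sterol synthesis genes rose, and fatty acid synthesis genes did not follow uniformly. Of 24 tested members of the joint list 21 rose and 2 fell, 13 rose by 2-fold or more, and the median was 1.02. Insig1, a sterol-regulated brake on SREBP processing, rose from 29.4 and 31.9 to 121 and 127 CPM (2.01 ± 0.04, adjusted p = 2.27e-33). Dhcr7, which acts at the end of cholesterol synthesis, rose from 17.7 and 16.6 to 57.2 and 58.1 CPM (1.75 ± 0.05), and the lanosterol demethylase gene Cyp51 from 68.3 and 65.7 to 171 and 178 CPM (1.39 ± 0.04). In each, both day 4 libraries stood above both day 2 libraries. The regulator gene Srebf2 went from 134 and 138 to 282 and 266 CPM (1.01 ± 0.04). The 2 members that fell make fatty acids: Fasn went from 397 and 392 to 336 and 331 CPM (-0.24 ± 0.03) and Acaca from 149.8 and 151 to 111 and 108 CPM (-0.45 ± 0.04). The desaturase genes Scd1 and Scd2 rose by 1.02 ± 0.03 and 0.92 ± 0.03.

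Markers of other cell types also moved with the day. All 13 macrophage and leukocyte genes rose, with a median of 1.56. Lysozyme (Lyz2) rose from 15.5 and 16.5 to 54.6 and 54.6 CPM (1.77 ± 0.05), the lysosomal glycoprotein gene Cd68 from 3.94 and 4.31 to 16.7 and 15.5 CPM (1.96 ± 0.09) and the mannose receptor gene Mrc1 from 15.7 and 15.2 to 44.2 and 46.5 CPM (1.56 ± 0.06). The 8 macrophage and leukocyte marker genes summed to 40.4 and 42.9 CPM at day 2 and 119 and 118 CPM at day 4, against 236 and 232 CPM in uninduced MEFs, and none of the 8 was at 0. The part of such cells in the other results was not tested. Endothelial markers summed to 74.9 and 77 CPM at day 2 and 32.2 and 34.1 CPM at day 4, nearly all of it from the angiopoietin receptor gene Tek (72.5 and 74.6 to 29.9 and 31.7 CPM). The defining endothelial genes Pecam1, Cdh5, Tie1 and Emcn stayed at or below 0.436 CPM in all 4 libraries. Neural markers summed to 53.5 and 53.3 CPM and then 3.86 and 3.46 CPM, again from 1 gene, the neuronal tubulin Tubb3. Skeletal muscle markers stayed low, at 3.21 and 3.64 CPM and then 4.48 and 3.86 CPM.

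Mesenchymal genes were mixed rather than uniformly lower. Of 33 tested fibroblast matrix genes 22 rose and 8 fell, with a median of 0.31. Periostin (Postn) rose from 33 and 34.1 to 105 and 111 CPM (1.69 ± 0.04), elastin (Eln) from 9.39 and 9.44 to 93.6 and 93.5 CPM (3.31 ± 0.07) and Col1a1 from 1589.5 and 1616 to 2052 and 1928 CPM (0.31 ± 0.03). The matrix genes Col3a1 and Fbln2 went the other way, from 1546 and 1559.9 to 850.1 and 854 CPM (-0.87 ± 0.03) and from 1136 and 1145 to 544 and 514 CPM (-1.11 ± 0.03). Among 22 regulators of the mesenchymal state, 13 rose and 8 fell (median 0.21), and several known repressors of epithelial genes were among those that fell. Twist2 went from 22.7 and 21.2 to 6.43 and 7.01 CPM (-1.70 ± 0.07), and Snai2 (-0.59 ± 0.06), Zeb2 (-0.49 ± 0.05), Snai1 (-0.26 ± 0.07) and Zeb1 (-0.16 ± 0.04) fell as well. N-cadherin (Cdh2), the mesenchymal counterpart of Cdh1, went from 102 and 105 to 41.1 and 40.5 CPM (-1.35 ± 0.04). Vimentin (Vim) and fibronectin (Fn1), in contrast, rose by 0.22 ± 0.03 and 0.24 ± 0.03. Of 15 contractile genes and YAP targets, 11 fell and 2 rose (median -0.31), with calponin (Cnn1) at -2.19 ± 0.14, Tagln at -0.67 ± 0.03 and Acta2 at -0.31 ± 0.03. Falls also prevailed among 12 targets of TGF-beta and BMP, with 10 lower and 2 higher (median -0.73). The activin subunit gene Inhba went from 46.1 and 47.1 to 12.3 and 13.3 CPM (-1.86 ± 0.06), while Tgfbi rose by 1.11 ± 0.03.

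**Figure D2:**
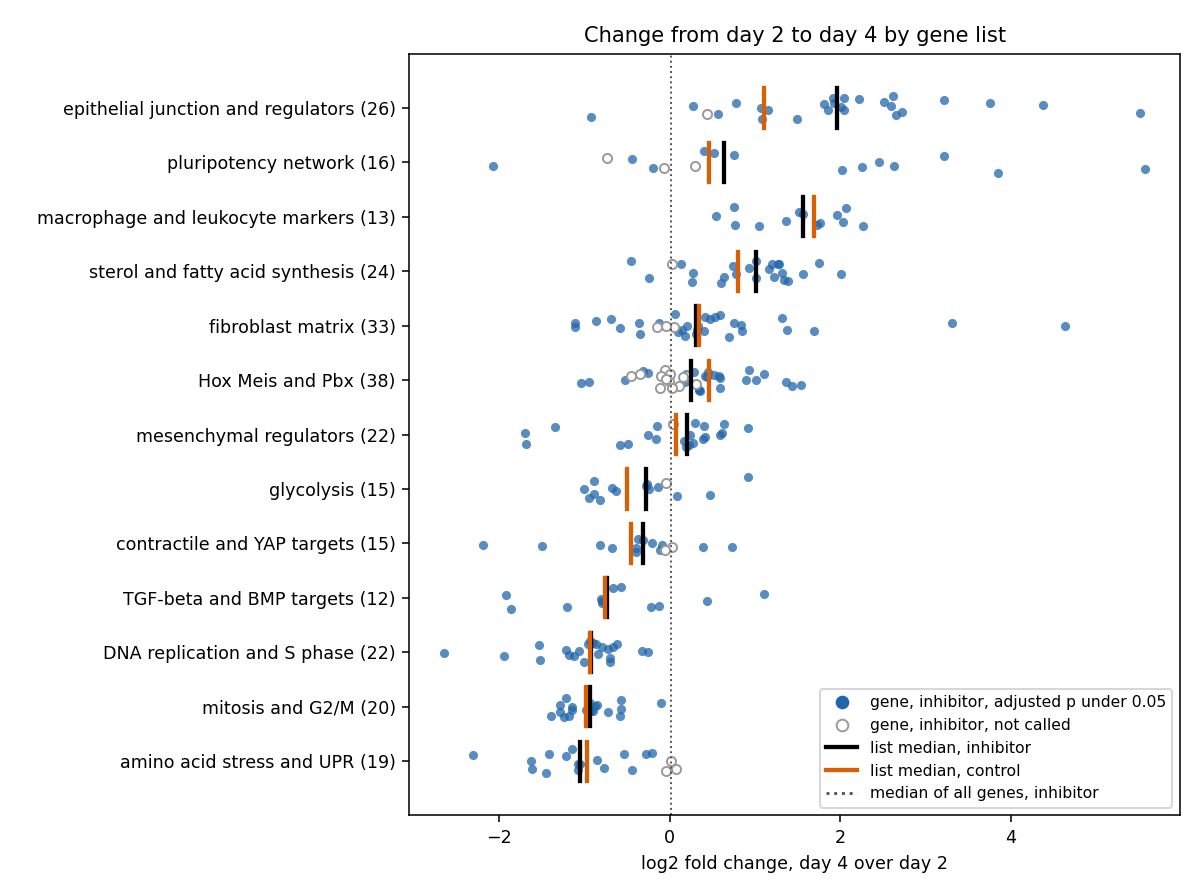
Change from day 2 to day 4 under the inhibitor (log2, horizontal axis) of each tested member of 13 gene lists, with the number of members in brackets; filled points passed the test, black bars are list medians under the inhibitor, orange bars the same medians in the control arm, and the dotted line is the median of all genes. The epithelial median lies at 1.97 under the inhibitor and 1.10 in the control, while the bars of the cell cycle lists nearly coincide.

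Patterning, growth factor and imprinted genes were also counted. Of 38 Hox, Meis and Pbx genes, which carry the positional identity of fibroblasts, 20 rose, 5 fell and 13 were not called (median 0.24). Hoxa10 and Hoxa9 rose from 13.7 and 14.1 to 36.4 and 38.9 CPM (1.44 ± 0.06) and by 1.36 ± 0.08, while Hoxb9 and Hoxc5 fell (-0.95 ± 0.07 and -1.04 ± 0.13). In the IGF and CXCL12 list 11 of 14 rose and 2 fell (median 0.77), with Igf1 at 4.61 and 4.05 and then 18.2 and 18.4 CPM (2.08 ± 0.09). Imprinted genes were divided, with 10 of 22 higher and 7 lower (median 0.14). The zinc finger gene Peg3 rose from 45.5 and 46.1 to 193 and 189.5 CPM (2.06 ± 0.04), and Dlk1, a Notch ligand homologue, fell (-0.73 ± 0.06).

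Falls prevailed in the lists of the amino acid and unfolded protein responses, glycolysis and oxidative phosphorylation. Of 19 genes of the amino acid and unfolded protein responses 16 fell and 3 were not called (median -1.05), the endoplasmic reticulum chaperone Hspa5 from 1095 and 1092 to 509.55 and 525 CPM (-1.08 ± 0.03) and the glutathione-degrading enzyme gene Chac1 from 8.84 and 9.18 to 3.57 and 3.03 CPM. In glycolysis 11 of 15 genes fell and 3 rose (median -0.28), with Gapdh at 4774 and 4762 and then 2481 and 2278 CPM (-1.003 ± 0.04) and Ldha at -0.81 ± 0.03. For oxidative phosphorylation 16 of 23 nuclear genes fell and 5 rose, but with a median of only -0.22. The interferon response list held 9 falls and 4 rises among 18 members: the ubiquitin-like modifier Isg15 went from 19.9 and 19.4 to 2.01 and 1.78 CPM (-3.38 ± 0.11) and its protease Usp18 fell (-3.03 ± 0.20), while Bst2, a restriction factor, rose by 1.51 ± 0.04. Among 18 secreted inflammatory factors there were 10 falls and 4 rises, with Il6 at 14.7 and 14.5 and then 3.31 and 4.15 CPM (-1.96 ± 0.12).

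The remaining lists are given as counts of called members beside their median change, to be read against the 39.6% and 39.2% of all genes. Chromatin modifiers of pluripotent cells counted 11 lower and 3 higher of 19 (median change -0.32), and DNA methylation genes 5 higher and 3 lower of 9 (0.32). Heat shock and immediate early genes, taken as 1 list, had 9 higher and 6 lower of 17 (0.09). The DOT1L complex and elongation list had 7 higher and 4 lower of 13, none by 2-fold (0.10). Epidermal genes counted 6 lower and 3 higher of 11 (-1.85), neural genes 7 lower and 4 higher of 12 (-0.84), and trophoblast-associated regulators 3 higher and 3 lower of 8 (0.18). Skeletal and cardiac muscle genes counted 4 higher and 2 lower of 12, endothelial markers 1 higher and 3 lower of 6, endoderm markers 1 higher and 2 lower of 4, and germ cell genes 3 higher of 5. Of these, the numbers of muscle genes that fell (between 1 and 3) and of endothelial markers that rose (0 or 1) moved by more than 1.5 times when single libraries were left out.

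The largest increases among well-expressed genes mostly started from low levels at day 2. The aldolase isozyme gene Aldoc went from 0.913 and 0.795 to 57.9 and 57.2 CPM (6.08 ± 0.10, adjusted p = 9.74e-38) and the sodium pump subunit gene Atp1b2 from 1.07 and 1.21 to 62.2 and 60.5 CPM (5.74 ± 0.09). Both genes were close to silent at day 2, and their day 4 replicates lay close together. Further large increases were those of the glycosyltransferase gene Galntl2 (now Galnt15, 5.50 ± 0.14), the pro-apoptotic gene Bmf (1.16 and 1.41 to 42.2 and 41.1 CPM, 5.01 ± 0.10), Egfl6, a secreted EGF-repeat protein gene (4.90 ± 0.10), and Lbp, which encodes a lipopolysaccharide-binding protein (4.70 ± 0.12). They also included the secreted peptide gene 1500015O10Rik (now Ecrg4, 4.66 ± 0.08), fibromodulin (Fmod, 16.5 and 14.7 to 392 and 382 CPM, 4.64 ± 0.04), and 1110032A04Rik (now Sptssb, 4.62 ± 0.13), a subunit of the enzyme that begins sphingolipid synthesis. Ifitm1, an interferon-induced membrane protein gene that is also high in early embryonic cells, rose from 11.1 and 10.2 to 268 and 256 CPM (4.62 ± 0.05), and the phosphodiesterase gene Gdpd2 rose by 4.48 ± 0.10.

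The largest decreases came from genes of varied function. Fosl1, an AP-1 subunit, went from 21.3 and 18.5 to 0.527 and 0.954 CPM (-4.71 ± 0.18, adjusted p = 4.15e-15). Genes known from the neuronal cytoskeleton and growth cone were among them: Nefl went from 34.8 and 32.1 to 1.22 and 1.35 CPM (-4.69 ± 0.11), Tubb3 from 53.2 and 53.1 to 3.26 and 2.74 CPM (-4.15 ± 0.08), and Gap43 fell (-3.30 ± 0.09). The EGF receptor ligand epiregulin (Ereg) went from 24.1 and 23.6 to 2.78 and 2.7 CPM (-3.12 ± 0.09), and the prostaglandin synthase gene Ptgs2 from 64.2 and 67 to 8.85 and 10.4 CPM (-2.77 ± 0.07). The hyaluronan synthase gene Has2 (-2.71 ± 0.08) and smooth muscle myosin (Myh11, -2.55 ± 0.14) fell too. Isg15 and Ccne2, described above, also belonged to the group, as did Gm5506 (now Eno1b, -2.65 ± 0.31), which is near-identical to Eno1, so the division of reads between the pair is uncertain.

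The same 2 days in the control arm asked how much of this step depended on the inhibitor. The change with the inhibitor and the change without it share no library, although all libraries come from 1 experiment. In the control arm 11262 of 14473 genes changed (77.8%), 5521 upward (38.1%) and 5741 downward (39.7%). Both changes were called in the same direction in 10146 genes, with 4953 rising and 5193 falling in both arms, and in opposite directions in 54 and 28 genes. Across 14473 genes the changes had a Pearson correlation of 0.868, given as a description, since genes are not independent. The difference of the 2 changes was tested as an interaction and called in 1329 genes, or 9.18% of those tested. In 812 of them the change was higher with the inhibitor (5.61%) and in 517 lower (3.57%), and by 2-fold or more in 103 (0.712%) and 37 (0.256%). The share of higher genes among these calls, 61.1%, depended on the genes and libraries fitted: it was 47.22% without the low-count filter and 48.42% when only the 8 libraries of both arms were fitted. The count itself was 1529 and 1840 there, and was 880 without day 4 control replicate 2. The 812 became between 515 and 535 without any 1 of the day 2 libraries or of the day 4 control libraries. Of the 812 genes, 364 rose in both arms and 183 fell in both, 120 rose only with the inhibitor, 91 fell only without it, and 54 went in opposite directions. The plot of both changes shows this scatter around the line of equal change.

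**Figure D3:**
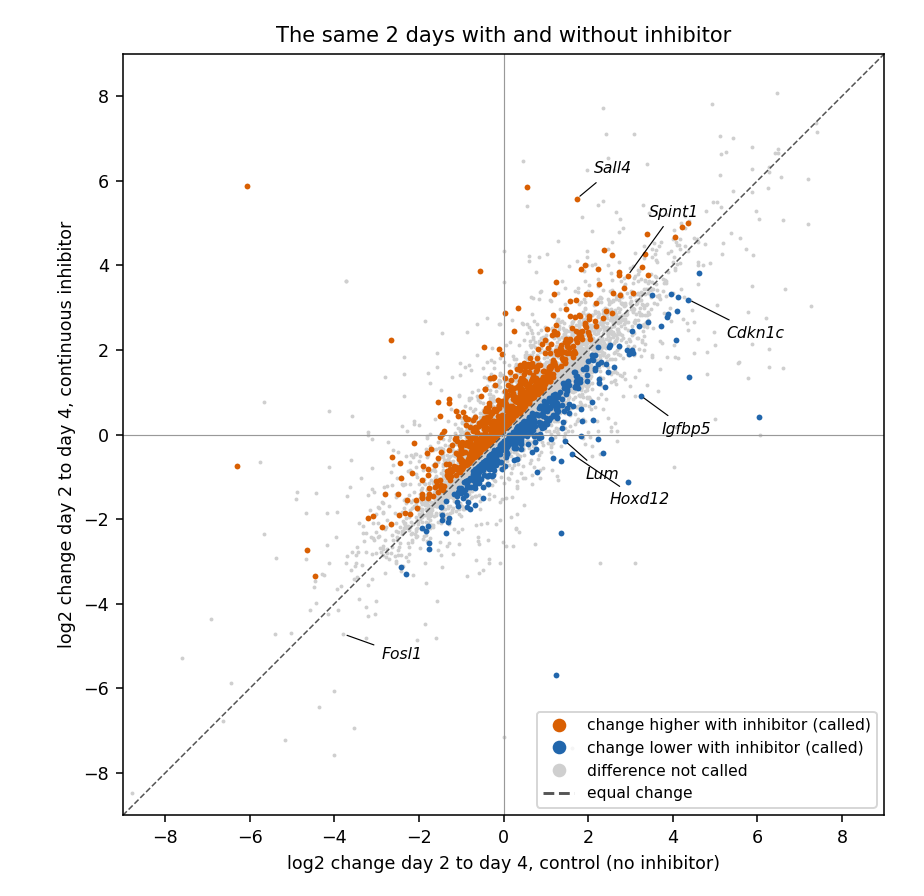
Change from day 2 to day 4 in each of 14473 genes, without inhibitor (horizontal axis, log2) and with continuous inhibitor (vertical axis, log2); coloured genes had a called difference, 812 higher and 517 lower with the inhibitor, and 3 genes lie outside the axes. Most points follow the dashed line of equal change, and Igfbp5, Lum and Hoxd12 lie below it.

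Both cell cycle lists had 0 of 42 genes with a called difference in edgeR and 0 in DESeq2, and 1 had an unadjusted p under 0.05 in edgeR. Of all genes tested, 9.18% had a called difference in edgeR. Their medians in the control arm were -0.93 and -0.98, beside the -0.92 and -0.93 with the inhibitor. Cdk1 alone became called when only the libraries of both arms were fitted, with a difference of -0.12. Nuclear oxidative phosphorylation genes and chromatin modifiers likewise had 0 called differences in edgeR and in DESeq2, and 0 and 4 of them had an unadjusted p under 0.05 in edgeR. For these lists no difference was detectable at this depth and spread, which does not show that the changes were equal.

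In the epithelial list most called differences were upward. Of its 26 tested members 10 rose more with the inhibitor, against 5.61% of all genes, and 1, Pard6b, rose less. Cdh1 went from 3.13 and 2.92 to 8.02 and 7.53 CPM in the control arm (1.36 ± 0.11), and the difference of the changes was 0.55 ± 0.14 (adjusted p = 0.00818). That call was lost without day 4 control replicate 2 (0.50, adjusted p = 0.0503) or day 2 control replicate 1 (0.49, adjusted p = 0.09). F11r went from 12.6 and 11.2 to 31 and 28.3 CPM without the inhibitor and had a difference of 0.72 ± 0.10 (adjusted p = 5.86e-07). Desmoplakin (Dsp) was not called in the control arm, at 35.7 and 35.7 and then 35.3 and 38.1 CPM, and had a difference of 0.74 ± 0.07 (adjusted p = 1.2e-10). The splicing regulator Esrp2, which directs epithelial isoforms, went from 1.12 and 1.41 to 0.928 and 0.956 CPM without and from 1.78 and 1.61 to 3.62 and 3.51 CPM with the inhibitor (difference 1.50 ± 0.30). St14, Krt8, Krt18, Cldn3, Spint1 and Jup had differences of 0.996, 0.95, 1.03, 0.90, 0.82 and 0.33. For Spint2 the difference of 0.15 ± 0.12 was not called (adjusted p = 0.523).

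In the pluripotency list 3 of 16 members rose more with the inhibitor, namely Tcfcp2l1 (0.79 ± 0.15), Sall4 and Tdgf1. The share of all genes with a higher change was 5.61%. Sall4 stood at 0.0995 and 0.0463 and then 0.302 and 0.187 CPM in the control arm, and its difference was 3.84 ± 1.09 (adjusted p = 0.0174). Tdgf1, a Nodal co-receptor gene, had 1 and 1 counts at day 2 and 9 and 22 at day 4 with the inhibitor, a ratio of 16.4 (4.18 to 142). The count of 3 fell to 1 without day 2 inhibitor replicate 2 or without day 2 control replicate 1, and the Sall4 call was lost in both of these fits. For Nanog, which stood at 0.274 and 0.232 and then 0.82 and 0.606 CPM without inhibitor, the difference of 0.96 ± 0.47 was not called (adjusted p = 0.24) but passed in limma on log2(TPM + 1).

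Several genes that rose in the control arm did not rise, or rose less, while DOT1L was inhibited. The IGF-binding protein gene Igfbp5 went from 6.87 and 7.64 to 68.4 and 69 CPM without inhibitor but only from 9.24 and 9.1 to 17 and 17.6 CPM with it, a difference of -2.32 ± 0.09 (adjusted p = 2.77e-22). The growth factor gene Igf2 stood at 264 and 259.7 and then 257 and 252 CPM with the inhibitor (adjusted p = 0.275) and rose from 340.5 and 349 to 574 and 564 CPM without it (-0.76 ± 0.05). The imprinted gene Mest stood at 133 and 128 and then 129 and 131 CPM with and rose from 98.4 and 98.7 to 165 and 169.9 CPM without the inhibitor (-0.77 ± 0.05). The chemokine gene Cxcl12 rose in both arms, from 89.1 and 87.7 to 116 and 119.8 CPM with and from 99.1 and 95.4 to 233 and 231 CPM without (-0.84 ± 0.05). In the IGF and CXCL12 list 6 of 14 members had a lower and 2 a higher change, and in the imprinted list 6 of 22 and 2, against 3.57% and 5.61% of all genes. The IGF and imprinted lists share Igf2 and Igf2r.

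Some matrix genes belonged to the same pattern. Lumican (Lum) went from 4.07 and 3.52 to 3.31 and 3.53 CPM with the inhibitor and from 2.84 and 3.1 to 8.05 and 8.16 CPM without it (-1.59 ± 0.16, adjusted p = 2.1e-09), and decorin (Dcn) had a difference of -0.44 ± 0.08. Abi3bp, an extracellular matrix gene, stood at 13.2 and 14.1 and then 12.9 and 13.7 CPM with and rose from 11.2 and 9.84 to 37.6 and 37.2 CPM without the inhibitor (-1.87 ± 0.10). In each of these genes the control arm rose and the inhibitor arm was not called. Across the matrix list 9 of 33 members had a higher and 9 a lower change, against 5.61% and 3.57% of all genes, so the list did not shift in 1 direction. Without day 4 inhibitor replicate 1 the count of higher changes was 5. Cdkn1c rose in both arms, but less with the inhibitor (-1.18 ± 0.10), from 4.85 and 4.7 to 98.4 and 98.7 CPM in the control. Further genes with smaller rises under the inhibitor were the Toll-like receptor accessory gene Tril (-1.17 ± 0.24), the scavenger receptor gene Scara5 (-1.10 ± 0.14) and the fibronectin-domain gene Fndc1 (-1.04 ± 0.17). The Tril difference was -0.29 and not called in limma on log2(TPM + 1). Gap43 fell further with the inhibitor (-0.998 ± 0.13).

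Lower changes were also counted among Hox genes. Of 38 members of the Hox, Meis and Pbx list 10 had a lower change with the inhibitor and 1 a higher one, against 3.57% and 5.61% of all genes. Hoxd12 stood at 1.16 and 0.954 and then 0.791 and 0.747 CPM with the inhibitor and rose from 2.26 and 1.85 to 6.23 and 6.27 CPM without it (-2.06 ± 0.28, adjusted p = 7.43e-07). Hoxa11 rose in both arms, from 10.6 and 9.2 to 12.8 and 12.4 CPM with and from 10.1 and 11 to 21.6 and 22.8 CPM without the inhibitor (-0.73 ± 0.11). Hoxc8 fell with it (-0.31 ± 0.06) and rose without it (0.24 ± 0.06), and Hoxb9 fell in both arms, further with it (-0.48 ± 0.10). In contrast, the large rises of Hoxa10 and Hoxa9 had no called difference. The count of 10 was 6 without day 4 inhibitor replicate 2, 6 without day 4 control replicate 1 and 5 without day 2 control replicate 2.

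**Figure D4:**
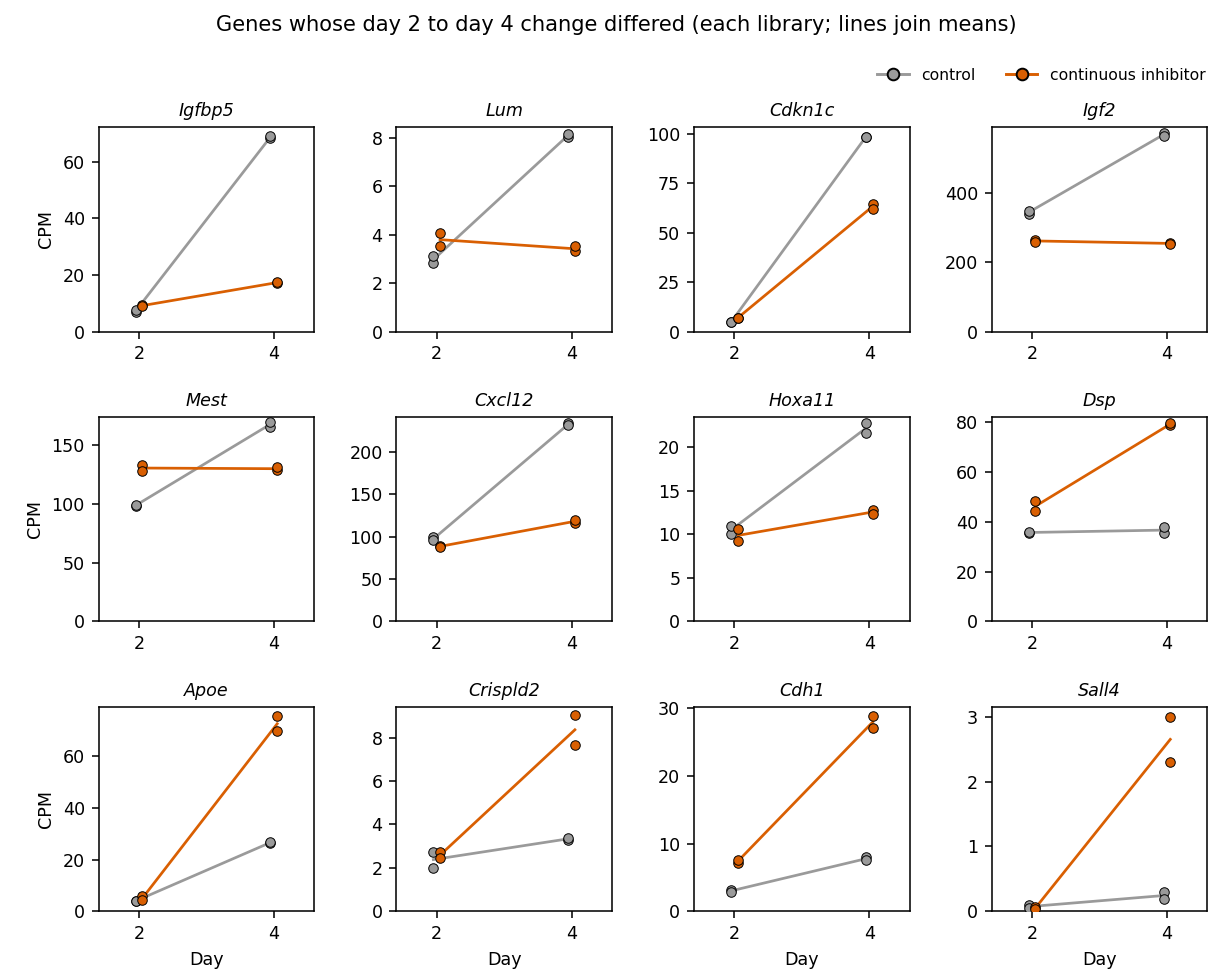
Level (CPM, axes from 0) of 12 genes with a called difference, at day 2 and day 4, in each library of the control arm (grey) and of the continuous inhibitor arm (orange); lines join the means of 2 libraries. Igfbp5, Lum, Igf2, Mest and Hoxa11 rise steeply in the control arm alone or more than under the inhibitor, and Apoe, Cdh1 and Sall4 rise more steeply under the inhibitor.

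Among genes whose change was higher with the inhibitor, apolipoprotein E (Apoe) rose from 5.81 and 4.39 to 75.5 and 69.8 CPM with and from 3.88 and 4.14 to 26.5 and 26.9 CPM without it, a difference of 1.11 ± 0.14 (adjusted p = 4.05e-07). The adhesion molecule gene Mcam rose by 1.29 ± 0.05 with and by 0.18 ± 0.06 without the inhibitor, and the phosphodiesterase gene Pde1b rose by 1.34 ± 0.09 with it and was not called without it (0.03 ± 0.10). The G protein regulator Rgs8 and the secreted protein gene Crispld2 had differences of 1.26 ± 0.12 and 1.22 ± 0.20. A positive difference could also be a shallower fall: the guidance cue gene Sema3a fell in both arms (-0.90 ± 0.10 with and -2.16 ± 0.12 without the inhibitor, a difference of 1.26 ± 0.16).

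Higher changes with the inhibitor, as shallower falls or steeper rises, were also counted in other lists. Of all genes, 5.61% had a higher and 3.57% a lower change, and the counts are read against these shares. Of 15 contractile and YAP target genes 8 had a higher change and 7 had no called difference. Ctgf (now Ccn2), a YAP target, fell from 382 and 382 to 298 and 292 CPM with and from 363 and 358 to 179 and 181 CPM without the inhibitor (0.63 ± 0.04), and Cyr61 (now Ccn1) rose more with it (0.32 ± 0.04). Of 15 glycolysis genes 8 had a higher change, all by small amounts, such as Eno1 at 0.18 ± 0.04 and Aldoa at 0.25 ± 0.05. The contractile count was 4 without day 2 inhibitor replicate 2 and 5 without day 4 inhibitor replicate 1, day 2 inhibitor replicate 1, day 4 control replicate 2 or day 2 control replicate 1. The glycolysis count was 3 without day 2 inhibitor replicate 2, 4 without day 4 inhibitor replicate 1 and 5 in each other fit without 1 library except that without day 4 inhibitor replicate 2. Sterol and fatty acid genes had a higher change in 11 of 24, with Cyp51 at 0.32 ± 0.05 and Dhcr7 at 0.34 ± 0.07, both of which rose in both arms. That count was 7 without day 2 inhibitor replicate 1 or day 2 control replicate 2, and 6 in limma on log2(TPM + 1). TGF-beta and BMP targets had a higher change in 5 of 12 and a lower one in 1, and the higher count was 3 in each fit without 1 library except those without day 4 inhibitor replicate 2 or day 2 inhibitor replicate 1, where it was 4.

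Regulators of the mesenchymal state went both ways, with 5 of 22 changes higher and 6 lower. For this list and those that follow, the shares of all genes were 5.61% higher and 3.57% lower. Twist2 fell further with the inhibitor (-0.83 ± 0.10), as did Cdh2 (-0.28 ± 0.06), and Zeb1 fell with it (-0.16 ± 0.04) but rose without it (0.10 ± 0.04). The ligand gene Tgfb1 rose from 23.3 and 25.1 to 30.4 and 29.2 CPM with and fell from 20.3 and 18.7 to 15.9 and 15.8 CPM without the inhibitor (0.60 ± 0.09). The 5 higher changes became 3 without day 4 inhibitor replicate 1 or 2 or day 2 inhibitor replicate 1, and 2 without any other library of both arms. Interferon response genes had 5 of 18 changes higher and 1 lower, and the 5 became 3 without day 4 inhibitor replicate 2, day 2 inhibitor replicate 2, day 4 control replicate 2 or either day 2 control library. The guanylate-binding GTPase gene Gbp2 stood at 6.3 and 6.18 and then 6.79 and 6.39 CPM with the inhibitor and fell from 5.45 and 6.02 to 2.31 and 1.98 CPM without it (1.49 ± 0.17). Among 18 inflammatory factors 6 changes were higher and 5 lower. Il6 fell less with the inhibitor (1.24 ± 0.20). Osteopontin (Spp1) rose from 1142 and 1138 to 1207 and 1207 CPM with the inhibitor, a small change whose call was lost in some alternative. Without the inhibitor Spp1 fell from 1155 and 1142 to 693 and 691 CPM (difference 0.81 ± 0.04). Macrophage and leukocyte genes had 1 higher and 2 lower changes of 13, Lyz2 (-0.35 ± 0.08) and Emr1 (-0.57 ± 0.16) among the lower. The summed macrophage and leukocyte markers stood at 39 and 36.8 CPM and then 128 and 124 CPM in the control arm, close to the inhibitor arm at both days. Dot1l itself fell in the control arm (-0.18 ± 0.04) and had a difference of 0.22 ± 0.06 (adjusted p = 0.00956), a call that was lost without day 4 inhibitor replicate 1 (0.15), day 2 inhibitor replicate 2 (0.18), day 4 control replicate 1 (0.21), day 4 control replicate 2 (0.21) or day 2 control replicate 2 (0.17).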

How the data were processed

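Groups were taken from the sample titles. The builds mm9 and hg18 and the tools RSEM 1.2.4, Bowtie and Trimmomatic (the last 2 with no version) are those named in the submitters' processing notes, and libraries came from 1 µg of RNA with 20 ng of human 293T RNA added, per the labels' protocols. The deposited tables gave an expected count per gene for 20325 mouse genes, estimated by RSEM and not normalized. The deposited TPM values, scaled by RSEM for effective length within each library, entered only an alternative. Expected counts were rounded and tested with edgeR 4.0.16 in R 4.3.3 (robust quasi-likelihood, TMM scaling, filterByExpr with a minimum count of 10 and a minimum total of 15, 1 coefficient per group, 7 residual degrees of freedom). All 14 timecourse libraries entered 1 fit, which kept 14473 genes and filtered 5852. ESC and MEF sets came from a separate fit of 14 lentivirus and ESC libraries, as ESCs against MEFs given an empty lentivirus. P-values were adjusted over all genes tested.

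The text names, among called genes whose days did not overlap and whose mean log2 CPM reached 3, the 12 that rose most and the 12 that fell most, and also the 8 largest differences in each direction with the same sign in all 4 same-numbered comparisons. Each list added as many as 4 members by lowest p in the main comparison and 2 by lowest p in the difference. Further additions were the 4 largest changes of the ESC and MEF sets, and Cdh1, Dot1l, Pou5f1, Sox2, Klf4, Myc, Nanog and Col1a1. Some genes that meet these rules are not reported here. Further list members are named as examples and were chosen after their values were seen. The libraries, lists and members were chosen with earlier results of these data known, so counts over a list are descriptions. Promoters came from RefSeq (GRCm38.p6), and 18018 gene names of the files matched a current RefSeq symbol. Older symbols are printed as in the files.

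On simulated counts, 56% of 50 genes changed 1.2-fold and 96% of 50 changed 1.5-fold were recovered, with 16 false calls among 14168 genes. For the difference these shares were 44% and 84%, with 9 false calls. These counts held 50 changed genes at each size, whereas 78.8% of the genes tested in the data were called under the inhibitor. Whether the shares hold with that many changes, or for weakly expressed genes, was not tested. Within each group, the difference between both libraries exceeded counting noise (chi-square per gene between 1.899 and 11.13), so none was a copy of its partner. The highest value belonged to the day 4 cells given inhibitor on days 2 to 4, so a fit without them was added after seeing the data. Alternatives were DESeq2 1.42.0, limma 3.58.1 on log2(TPM + 1), RLE scaling, no low-count filter, fits of only the libraries compared, a replicate block, 8-fold sets and leaving out each library.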

Additional observations from a re-analysis of the deposited data

Results flagged for a closer look

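The results below stand out because the change from day 2 to day 4 differed between the inhibitor and the control arm in a test of the difference itself. They number 1329 genes in all, out of 14473 tested. Differences are log2 changes with the inhibitor minus those without it, ± SE.

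Higher changes with the inhibitor were found for Pde1b (1.31 ± 0.14), Rgs8 (1.26 ± 0.12), Sema3a (1.26 ± 0.16), Crispld2 (1.22 ± 0.20), Apoe (1.11 ± 0.14) and Mcam (1.11 ± 0.08). Each had an adjusted p of 4.44e-05 or lower and the same sign in all 4 same-numbered comparisons. Lower changes were found for Igfbp5 (-2.32 ± 0.09), Abi3bp (-1.87 ± 0.10), Lum (-1.59 ± 0.16), Cdkn1c (-1.18 ± 0.10), Tril (-1.17 ± 0.24), Scara5 (-1.10 ± 0.14), Fndc1 (-1.04 ± 0.17) and Gap43 (-0.998 ± 0.13). Among these Tril had the highest adjusted p (0.000508), and its libraries differed most at day 4 with the inhibitor (13.8 and 10.9 CPM).

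Cdh1 (0.55 ± 0.14, adjusted p = 0.00818) and Dot1l (0.22 ± 0.06, adjusted p = 0.00956) also differed, both with calls that were lost when single libraries were left out. Groups of 2 libraries were too small for a test of single outlying libraries.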

How the results depend on the processing

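No gene called both in the main fit and in an alternative changed sign between them, under the inhibitor or in the difference. Genes that lost their call in an alternative were not part of this check. The 11410 genes called under the inhibitor stayed between 10779 and 11485 in number, and 10594 or more of them were shared in direction. Of the 1329 differences, 1316 were shared when only the 8 libraries of both arms were fitted and 856 in the least similar fit, that without day 4 control replicate 2. Leaving out 1 library gave between 880 and 1135 differences, between 515 and 704 of them higher and between 347 and 456 lower. Lower differences rose in number from 517 to 807 without the low-count filter and to 949 with only the libraries compared. These fits tested 17933 and 14222 genes. The median difference of all genes was 0.0035 in the main fit and -0.0228 and -0.0188 in these fits. The part of this shift in the counts was not tested. In limma on log2(TPM + 1), genes past 2-fold numbered 1200 higher and 455 lower under the inhibitor, and 43 higher and 7 lower for the difference. The added constant shrinks changes of low genes, and its part in these counts was not tested. Leaving out the cells given inhibitor on days 2 to 4 left 11408 and 1345 calls.

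Same-numbered libraries of the inhibitor groups deviated together with a correlation of 0.115 and those of the control groups with 0.0145. Over all 21 pairs of groups the values ran from -0.49 to 0.157. These values cannot decide whether the replicate numbers pair the libraries, so the main fit used no pairing. A replicate block gave 11415 calls under the inhibitor and 1327 for the difference.

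Among genes named by the rule, called changes under the inhibitor were lost in some alternative for 6 genes, all weakly expressed or changed by little (Emcn, Pecam1, Spp1, Sycp3, Tnnt2 and Tpi1). Of the genes named for the difference, 5 lost and 3 gained a call in limma on log2(TPM + 1), and 1 lost it in DESeq2. Further calls of the difference were lost when single libraries were left out. With 2 libraries a group, changes of 1.2-fold were recovered about as often as they were missed in simulation, so small differences between the arms can go undetected.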

Other observations

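Core and output genes of the circadian clock moved from day 2 to day 4. The 14 genes were chosen after their values were seen, so they are given as values only. Of them 12 rose and 1 fell under the inhibitor, with a median of 0.93, and 1 had a called difference from the control arm. Of all genes tested, 39.6% rose, 39.2% fell and 9.18% had a called difference. The clock output gene Dbp rose from 6.86 and 6.08 to 81.5 and 77.1 CPM with the inhibitor and from 6.47 and 6.53 to 69.1 and 71.2 CPM without it. Per3, a period gene, rose from 8.62 and 8.11 to 51.3 and 52.6 CPM with and from 8.38 and 8.96 to 52.4 and 52.2 CPM without the inhibitor. The repressor gene Nr1d1 rose from 25 and 23.2 to 48.5 and 48.6 CPM (1.01 ± 0.05). Arntl, whose protein drives these genes, stood at 33.8 and 32.9 and then 31.5 and 29.7 CPM (-0.13 ± 0.05, adjusted p = 0.0333). The labels used here give no hour of harvest, so time of day and day of reprogramming cannot be told apart.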
